A study of Mus musculus with 3 samples.

Results

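The 10 genes described here, H2-K1, H2-D1, B2m, Tap1, Tap2, Tapbp, Psmb8, Psmb9, Nlrc5 and H2-T3, encode parts of the MHC class I pathway and of the immunoproteasome. They were taken by symbol from 51912 annotated features, and all 10 were found. Their transcripts were counted by 10x single-cell RNA sequencing (scRNA-seq) in 3 libraries of mouse intestinal epithelium. The groups of mice, Arid3a cKO (VillinCreERT2, Arid3a fl/fl; 2 libraries) and WT (VillinCreERT2 with no floxed allele named; 1 library), received tamoxifen at 8 to 10 weeks of age and were sampled 1 month after the first injection. VillinCreERT2 is a Cre recombinase that tamoxifen switches on in gut epithelial cells, so both groups carried the recombinase and received the drug, and floxed Arid3a alleles, which it can cut, are named for the cKO mice. Crypt preparations were dissociated and sorted for live cells that were Epcam-positive (epithelial), CD45-negative (not leukocytes) and CD31-negative (not endothelial). No strain was given in the sources used here.

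Almost every nucleated cell displays peptides from its own proteins on MHC class I molecules, which CD8 T cells read. Proteasomes cut the proteins into peptides, the TAP transporter carries the peptides into the endoplasmic reticulum, and tapasin and other chaperones load them onto a heavy chain paired with beta-2-microglobulin. Interferon-gamma raises most of the pathway through factors such as IRF1 and the class I transactivator NLRC5, and swaps catalytic subunits of the constitutive proteasome for immunosubunits. In the gut these genes are also active at rest, where the epithelium lies beside intraepithelial lymphocytes and a dense microbial flora.

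A cell was kept with at least 1000 detected genes and at most 15% of its unique molecular identifiers (UMIs, each a tag for 1 captured transcript) from mitochondrial genes, which left 2134 and 1550 cells of the Arid3a cKO replicates and 1910 of WT, with 58169310 to 70922480 UMIs a library and a median of 29895 to 35764 a cell. The libraries shared 11 to 18 cell barcodes pairwise, and at most 2 among kept cells. Levels are UMIs scaled to a total of 1000000 UMIs over the cells summed (CPM). Because a 3′ kit counts each transcript once at its end, CPM was not divided by length and can be set side by side between genes, apart from differences in capture. None of the 410 windows of 91 bases in the last 500 bases of the longest transcript of any of the 10 genes occurred in another annotated gene. The knocked-out gene, Arid3a, gave 0.592 and 0.894 CPM in the cKO replicates and 2.57 CPM in WT (log2 fold change −1.76 ± 0.30 SE, adjusted p = 0.0447, edgeR quasi-likelihood test with Benjamini-Hochberg adjustment). A pair of features also set the groups apart. The mitochondrial gene mt-Nd3 stood at 8.30 and 10.3 CPM in the cKO replicates and 277 CPM in WT. Gm28438, which was not counted among the mitochondrial genes, stood at 94.5 and 73.1 CPM in the cKO replicates and 0.0638 CPM in WT. Whether the groups differed in strain, which could bear on MHC genes, or in mitochondrial background was not tested. With 1 WT library such a difference could not be told apart from genotype.

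Of the 10 genes, 8 lie on chromosome 17 in the mouse MHC (GRCm38, GENCODE M21 annotation). Psmb9 (chr17:34181987-34187764, minus strand), Tap1 (chr17:34187553-34197225, plus strand), Psmb8 (chr17:34197721-34201454, plus strand) and Tap2 (chr17:34203527-34216321, plus strand) follow one another. The annotated ends of Psmb9 and Tap1 overlap on opposite strands. Tapbp (chr17:33915899-33929292), H2-K1 (chr17:33996017-34000347, minus strand), H2-D1 (chr17:35262730-35267499) and H2-T3 (chr17:36185572-36190287, minus strand) lie around them. The other two are B2m (chr2:122147686-122153083) and Nlrc5 (chr8:94434356-94527272).

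The stretches upstream of the start sites are shown because these genes are known to be induced together and because the genes read from them behaved unequally below. RefSeq promoter windows (GRCm38.p6, 250 bases before to 50 after a start) matched 8 of the 10 genes, with 2 windows for H2-K1. Printed 5′ to 3′ on the strand of the gene are the 200 bases before the RefSeq start of Psmb8 (chr17:34197995-34198194, plus strand), Tap1 (chr17:34187356-34187555, plus strand), H2-K1 (chr17:34000348-34000547, minus strand) and B2m (chr2:122147487-122147686, plus strand). Capitals mark a match to a GAS-type site, TTCNNNGAA, in Psmb8, to the enhancer A kappa-B letters GGGGANTCCCC in H2-K1, and to an ISRE-type repeat, GAAANNGAAA, in B2m. The Tap1 stretch held no match to these 3 motifs and also lies upstream of the RefSeq start of Psmb9, which is read in the opposite direction. RefSeq and GENCODE starts differ for some of these genes. The Psmb8 stretch and its GAS-type match lie inside the GENCODE span of Psmb8 (chr17:34197721-34201454). The Tap1 stretch lies inside that of Psmb9 (chr17:34181987-34187764).
Psmb8: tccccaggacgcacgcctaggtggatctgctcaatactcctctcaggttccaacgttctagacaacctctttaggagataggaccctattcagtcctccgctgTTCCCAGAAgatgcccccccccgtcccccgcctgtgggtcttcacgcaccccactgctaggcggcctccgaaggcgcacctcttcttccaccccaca
Tap1: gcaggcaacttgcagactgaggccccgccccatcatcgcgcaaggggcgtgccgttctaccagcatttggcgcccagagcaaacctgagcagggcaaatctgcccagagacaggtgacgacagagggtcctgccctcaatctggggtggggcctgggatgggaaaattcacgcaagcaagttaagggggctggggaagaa
H2-K1: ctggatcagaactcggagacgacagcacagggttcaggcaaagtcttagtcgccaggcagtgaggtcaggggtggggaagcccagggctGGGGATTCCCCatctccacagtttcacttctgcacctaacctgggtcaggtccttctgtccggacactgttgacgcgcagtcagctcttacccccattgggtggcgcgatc
B2m: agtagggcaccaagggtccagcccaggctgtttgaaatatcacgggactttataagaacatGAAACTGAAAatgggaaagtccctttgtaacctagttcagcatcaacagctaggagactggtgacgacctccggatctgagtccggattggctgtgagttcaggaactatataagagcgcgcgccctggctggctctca

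Over both strands of 32851 promoter windows, GGGGANTCCCC was found in 16 (0.0487%), of which 3 belong to H2-K1 and H2-D1. GAAANNGAAA was found in 3.44% of all windows and among the genes in B2m alone. TTCNNNGAA was found in 8.3% of all windows and among the genes in Psmb8 alone. The CCAAT box was present for 6 of the 8 genes with a window and in 37.4% of all windows, and the core letters TGACG for 5 of the 8 and in 20.8%. The X box core CCTAGCAAC was found for none of the 8 and in 0.804% of all windows. These matches describe letters in the reference and no binding was measured. Only exact letters were searched, so a site that departs from them in any base was not counted. The lack of a match therefore does not show that a gene lacks such an element.

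In all kept cells the class I surface molecules were the most abundant products of the group and lay slightly lower in both Arid3a cKO libraries than in WT, without passing the test. B2m, the light chain, gave 790 and 866 CPM in the cKO replicates and 944 CPM in WT. H2-K1, a classical heavy chain, gave 482 and 545 CPM against 604 CPM. H2-D1, the other classical heavy chain of this annotation, gave 374 and 397 CPM against 429 CPM. For all 3 the WT library was highest and the groups did not overlap, with log2 fold changes of −0.15 ± 0.10, −0.20 ± 0.11 and −0.12 ± 0.09 (SE) and adjusted p of 0.620, 0.538 and 0.667 (edgeR). H2-T3, the thymus leukemia antigen, is a non-classical class I molecule of gut epithelium that does not depend on TAP. It gave 115 and 113 CPM in the cKO replicates and 113 CPM in WT, so that the WT value lay between the cKO values (log2 fold change 0.05 ± 0.09).

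The genes that make and carry the peptides stood further apart. Psmb8, the immunosubunit with the chymotrypsin-like activity, gave 171 and 165 CPM in the Arid3a cKO replicates and 242 CPM in WT, and it was the 1 gene of the 10 that passed the test (log2 fold change −0.49 ± 0.08, 71.2% of WT, adjusted p = 0.0465). Across all 16670 genes tested, 0.696% were called, 0.456% lower in cKO and 0.24% higher. Psmb9, the immunosubunit that takes the place of the caspase-like subunit, gave 110.1 and 104 CPM against 145 CPM (log2 fold change −0.40 ± 0.09, adjusted p = 0.108). Tap1, a chain of the peptide transporter, gave 27.8 and 24.9 CPM against 38.5 CPM (log2 fold change −0.51 ± 0.10, adjusted p = 0.085). In each of these 3 genes the cKO replicates lay close together and below WT, at 68.5 to 73.9% of WT by their mean.

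Their partners differed less. Tap2, with which TAP1 forms the transporter, gave 21.3 and 21.9 CPM in the cKO replicates and 24.7 CPM in WT (log2 fold change −0.16 ± 0.10). Tapbp, which encodes tapasin, gave 80.4 and 74.1 CPM against 89.5 CPM (log2 fold change −0.18 ± 0.09). Neither passed the test (adjusted p = 0.605 and 0.532), although the WT library was again the highest. The transactivator Nlrc5 was scarce, with 12 and 5 UMIs in the cKO replicates and 54 UMIs in WT. Its log2 fold change of −2.67 ± 0.49 was the widest of the 10 genes and did not pass the test (adjusted p = 0.058).

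**Figure D1:**
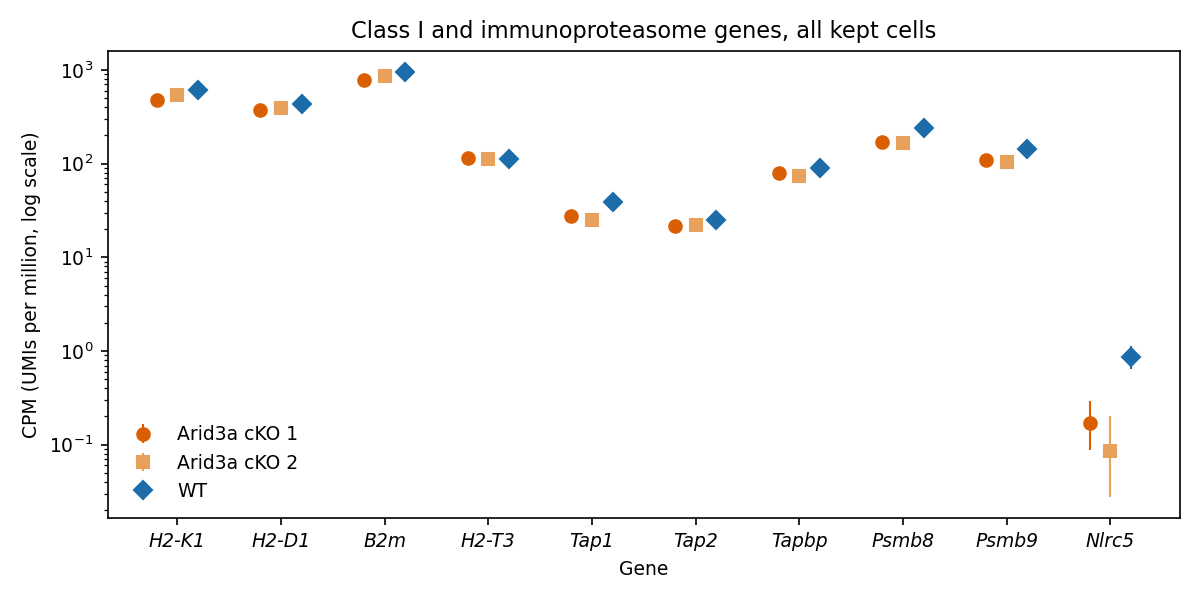
Levels in CPM (log scale) of the 10 genes in all kept cells of each library, with exact 95% Poisson intervals that cover counting error only and are mostly narrower than the points. WT lies highest for every gene except H2-T3, from a small step for H2-D1 (374, 397 and 429) to the widest for Nlrc5 (12, 5 and 54 UMIs).

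The median log2 fold change of the 10 genes was −0.19 in all kept cells, and 9 of the 10 were negative, beside a median of 0.00 and 50.6% negative over all genes tested. With 2 libraries against 1, the fit has 1 residual degree of freedom, borrows its spread from all genes and takes the lone WT library to vary like the cKO libraries. An exact permutation test of 2 against 1 libraries cannot go below p = 0.333. The call of Psmb8 in all kept cells stood close to the threshold and was lost with RLE normalization (adjusted p = 0.103), without cells holding any leukocyte marker UMI (adjusted p = 0.0889), without the 5% of cells richest in antiviral interferon transcripts (adjusted p = 0.056) and with wider limits on cells (adjusted p = 0.0575), while its log2 fold change stayed between −0.55 and −0.47 under all 12 alternatives run.

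To ask whether the difference lay in a certain kind of cell, the cells were clustered without the 10 genes, without the gene lists used below and without Arid3a. Clusters were named from marker lists as enterocyte-like (2265 cells), intestinal stem cell (ISC)-like, transit-amplifying (TA)-like, goblet-like, Paneth-like, enteroendocrine-like and tuft-like, and 1 cluster, led by 1500035N22Rik, Ccl20 and Edn2, stayed unnamed. Enterocytes are the absorptive cells of the villus, and ISCs and TA cells the dividing cells of the crypt. The enterocyte-like share of kept cells was 39.9% and 42.2% in the Arid3a cKO replicates and 39.8% in WT, and the ISC- and TA-like share 32.0%, 31.2% and 32.3%. The unnamed cluster held 16.3%, 12.8% and 10.9% and the enteroendocrine-like cells 2.58%, 3.29% and 5.86%. With each class weighted by its share of WT cells, the median log2 ratio of the 10 genes in all cells was −0.24. This ratio was taken from CPM without a scaling factor, and edgeR with no scaling factor gave a median of −0.22.

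In enterocyte-like cells, Tap1 of the peptide transporter and the immunosubunits Psmb8 and Psmb9 were lower in Arid3a cKO. Of the 10 genes 3 were called lower and none higher, where 2.15% of the 12623 genes tested were called, 1.36% lower and 0.792% higher. Tap1 gave 46.6 and 41.9 CPM in the cKO replicates and 67.4 CPM in WT (log2 fold change −0.62 ± 0.09, 65.1% of WT, adjusted p = 0.00255, edgeR). Psmb9 gave 134 and 127 CPM against 173 CPM (log2 fold change −0.41 ± 0.09, adjusted p = 0.0343). Psmb8 gave 296 and 294 CPM against 396 CPM (log2 fold change −0.44 ± 0.10, adjusted p = 0.0493). The cKO replicates lay close together in all 3 genes and well below WT. H2-K1 (792, 914 and 973 CPM), B2m (1293, 1434 and 1567 CPM) and H2-D1 (534, 577 and 620 CPM, given for cKO replicate 1, cKO replicate 2 and WT) had WT highest too, with adjusted p from 0.562 to 0.580. Nlrc5 (adjusted p = 0.0998), Tap2 (0.371), Tapbp (0.391) and H2-T3 (0.945) were not called either.

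The calls in enterocyte-like cells moved with the method. DESeq2 called none of the 10 genes. With the 5% of cells of highest doublet score left out only Tap1 was called, with Psmb8 at −0.43 and Psmb9 at −0.41. Calls over all genes fell as well, from 272 to 87 with DESeq2 and to 131 without those cells. A second fact moved with the groups there. UMIs of 22 leukocyte markers summed to 10.6 and 57.3 CPM in the cKO replicates and 105 CPM in WT, led by Ccl5 (3.20, 17.4 and 39.8 CPM) and Gzma (2.26, 23.8 and 33.7 CPM), genes of cytotoxic lymphocytes. The leukocyte marker Ptprc (CD45), which the sort selected against, had 7, 10 and 27 UMIs, and Ifng had 0, 2 and 3. Cells with any leukocyte marker UMI made up 9.17%, 10.1% and 12.5% of the enterocyte-like cells, and without them Tap1 and Psmb9 were still called and Psmb8 was not (log2 fold change −0.45, adjusted p = 0.0684).

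In ISC- and TA-like cells the immunosubunits Psmb8 and Psmb9 were lower in Arid3a cKO. Of the 10 genes 2 were called lower and none higher, where 1.32% of the 14452 genes tested were called, 0.74% lower and 0.581% higher. Psmb8 gave 93.9 and 84.8 CPM in the cKO replicates and 159 CPM in WT (log2 fold change −0.82 ± 0.14, 56.7% of WT, adjusted p = 2.24e-05), and it was called under every one of the 8 alternatives that gave a test. Psmb9 gave 99.4 and 98.7 CPM against 146 CPM (log2 fold change −0.55 ± 0.14, adjusted p = 0.0154). The other 8 genes were negative as well without being called, among them Tap1 (14.7, 14.0 and 19.2 CPM, adjusted p = 0.259), H2-K1 (266, 288 and 343 CPM, adjusted p = 0.546) and B2m (483, 546 and 609 CPM, adjusted p = 0.766). Leukocyte markers were at a like low level in the 3 libraries here, at 7.43, 6.49 and 8.64 CPM, with at most 1 UMI of Cd3e and of Gzma in any library. Without cells holding any of them Psmb8 was called (log2 fold change −0.81, adjusted p = 0.0125) and Psmb9 was not, at a log2 fold change of −0.58 (adjusted p = 0.0695).

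**Figure D2:**
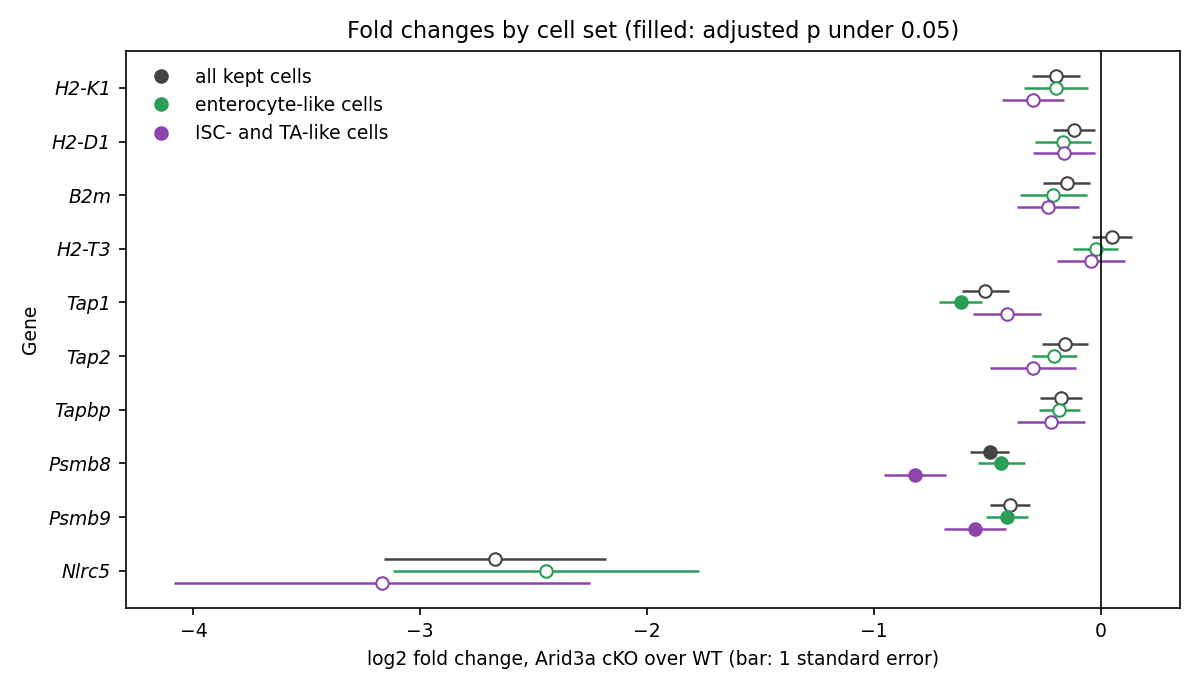
Log2 fold changes of Arid3a cKO over WT with 1 standard error (edgeR) for the 10 genes in all kept cells, enterocyte-like cells and ISC- and TA-like cells, with filled points where the adjusted p was under 0.05. Psmb8 is filled in all 3 sets, Psmb9 in enterocyte-like and in ISC- and TA-like cells, and Tap1 in enterocyte-like cells, while the heavy chains, B2m and H2-T3 sit near 0 and Nlrc5 lies far to the left with wide errors.

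The difference between the classes was tested by itself, as an interaction of genotype and class. None of the 10 genes was called (0.89% of 14835 genes tested were), by edgeR or by DESeq2. In either tool 1 gene, Psmb8, had an unadjusted p under 0.05. Its log2 fold change was 0.38 ± 0.15 nearer to 0 in enterocyte-like than in ISC- and TA-like cells (adjusted p = 0.364, edgeR). For Psmb9 the difference was 0.14 ± 0.15 (adjusted p = 0.952), and for Tap1, called in enterocyte-like cells alone, −0.21 ± 0.17 (adjusted p = 0.931).

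Within each library the 10 genes were higher in enterocyte-like than in ISC- and TA-like cells. The fold was 4.58 ± 0.22 (SD over 3 libraries) for Tap2, 3.79 ± 0.16 for H2-T3, 3.22 ± 0.26 for Tap1, 3.04 ± 0.49 for Psmb8, 3.0 ± 0.17 for H2-K1, 2.62 ± 0.05 for B2m, 2.59 ± 0.10 for Tapbp and 2.25 ± 0.03 for H2-D1. Nlrc5, on few UMIs, had 1.80 ± 0.49, and Psmb9 stood apart with 1.27 ± 0.09. Psmb8, its partner in the immunoproteasome, thus differed more between these classes than Psmb9 did. These folds are a description, since the cells were sorted into classes by their own transcripts. For Psmb8 the fold was 3.15 and 3.47 in the cKO replicates and 2.50 in WT.

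Across the 8 classes, 8 of the 10 genes were highest by CPM in enterocyte-like cells. The 9 genes other than Nlrc5 were lowest by CPM in Paneth-like cells, the antimicrobial cells of the crypt base. CPM is a share of all UMIs, and the classes differed in UMIs per cell. Relative to the median of their library, Paneth-like cells had a median of 4.155, tuft-like cells 0.294 and the enterocyte-like clusters 0.933 to 1.069. An order by CPM is therefore not an order by transcripts per cell, which was not compared. H2-D1 was an exception at the top, with 1638 and 1019 CPM in tuft-like cells of the cKO replicates and 1433 CPM in WT against 534 to 620 CPM in enterocyte-like cells, so that their ranges did not overlap. Tuft cells are chemosensory cells of the epithelium. Their class rested on 38, 20 and 40 cells with few UMIs each, which held 743, 418 and 656 UMIs of H2-D1. The enterocyte-like cells (851, 654 and 760) held 14192, 12337 and 13852. The higher CPM thus does not show more H2-D1 transcripts per tuft-like cell. The other heavy chain, H2-K1, was at 527 to 935 CPM in tuft-like cells, which overlapped the 792 to 973 CPM of enterocyte-like cells. Nlrc5 was listed highest there on 1 UMI in each library and lowest in Paneth-like cells on 0, which carries no order.

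Below the enterocyte-like cells the order depended on the gene. For H2-K1 each class overlapped the next in its range over libraries down to TA-like cells (255 to 309 CPM), and Paneth-like cells (74.3 to 132 CPM) stood below the rest. For Psmb8 the unnamed cluster, enteroendocrine-like, goblet-like, tuft-like, TA-like and ISC-like cells overlapped one another in turn, between 84.5 and 206 CPM. For H2-T3 the unnamed cluster came second (116 to 139 CPM), with no overlap above or below, and tuft-like and goblet-like cells were near the bottom (15.3 to 46.3 CPM). For Psmb9 the enterocyte-like (127 to 173 CPM) and unnamed (126 to 171 CPM) cells were level, and the ISC- and TA-like cells stood above the enteroendocrine-like, goblet-like and tuft-like cells.

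**Figure D3:**
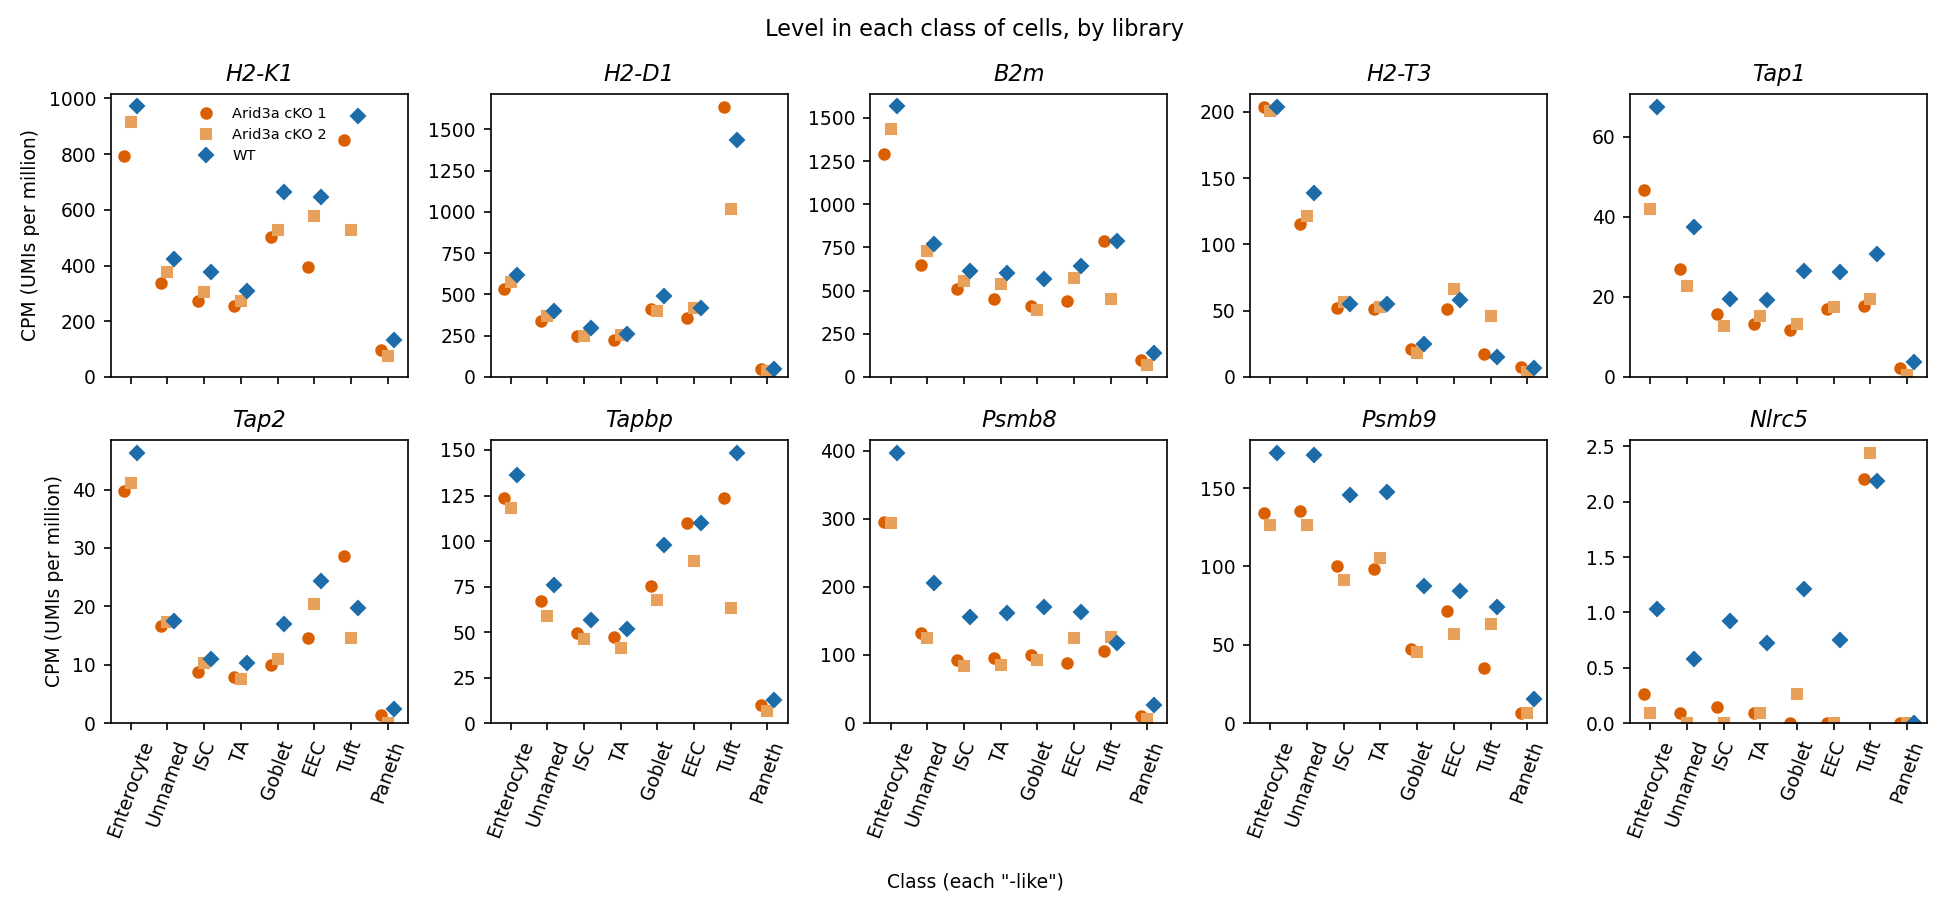
Levels in CPM of each gene (1 panel each, own axis from 0) in the 8 classes of cells, with 1 point per library. The WT point is the highest of the 3 in every class for H2-K1, B2m, Tap1 and Psmb9, while H2-D1 peaks in tuft-like cells (1638, 1019 and 1433) and H2-T3 and Psmb9 fall off in a different order from the rest.

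Set side by side over the 8 classes, both Arid3a cKO replicates lay below WT in all 8 for H2-K1, B2m, Tap1 and Psmb9, in 7 for Psmb8, Tap2 and Tapbp, in 6 for Nlrc5, in 5 for H2-D1 and in 4 for H2-T3. The goblet-like cells, which make mucus, had all 10 genes below WT in both cKO replicates at a median of 66.0% of WT. There Psmb8 gave 99.4 and 91.9 CPM against 170.1 CPM, Psmb9 47.3 and 45.2 CPM against 87.3 CPM, and B2m 410.2 and 389 CPM against 567 CPM. The median was 80.8% in ISC-like, 78.4% in TA-like, 87.2% in enterocyte-like and 83.5% in the unnamed cells. It was 61.5% in Paneth-like cells, without Nlrc5, which had 0 UMIs there, and 75.6% in enteroendocrine-like cells. In each of these classes 7 of the 10 genes were below WT in both cKO replicates. In tuft-like cells the median was 85.7%, with 5 below and 2 above. Classes are not independent samples, since all come from the same 3 libraries. How often both cKO replicates lay below WT over all genes was not counted by class, so these counts have no background. For Nlrc5 the order rests on few UMIs, with 0 and 1 in goblet-like cells of the cKO replicates and 5 in WT. No test was run class by class beyond the enterocyte-like and the ISC- and TA-like cells.

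Among the 3 enterocyte-like clusters, cluster 5 differed from the other two. In clusters 1 (led by Cubn) and 2 (led by Ms4a18) all 10 genes were below WT in both cKO replicates, at medians of 84.7% and 80.9% of WT. In cluster 5, led by Akp3 and S100g, which are known from the proximal small intestine, 4 of the 10 were, and the median was 97.6%. H2-T3 gave 224 and 216 CPM in the cKO replicates of that cluster and 180.1 CPM in WT, Tap2 42.9 and 46.1 CPM against 39.9 CPM, and H2-D1 557 and 570 CPM against 525 CPM. In these 3 genes both cKO replicates were above WT. Psmb8 there gave 355 and 328 CPM against 378 CPM, where in cluster 2 it gave 193 and 192 CPM against 308 CPM. The difference between the clusters was not tested. Cluster 5 held 179 and 183 cells of the cKO replicates and 175 of WT. In a finer clustering of the same cells, the cluster led by Akp3 and S100g held 157, 142 and 118. A separate enterocyte-like cluster, led by Gm42418 and Mir6236, then held 31 and 54 cells of the cKO replicates and 65 of WT. Its cells had fewer UMIs (median of relative UMIs 0.479 against 1.06). Whether H2-T3, Tap2 and H2-D1 stay above WT without such cells was not tested.

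Immunosubunits replace particular constitutive subunits, so the transcripts can be read as pairs: Psmb8 takes the place of Psmb5, Psmb9 that of Psmb6 and Psmb10 that of Psmb7. Of the UMIs of Psmb8 and Psmb5 together, Psmb8 made up 51.8% and 49.3% in the Arid3a cKO replicates and 63.0% in WT over all kept cells (exact 95% intervals 51.2 to 52.5%, 48.6 to 50.01% and 62.4 to 63.6%, counting error only). In enterocyte-like cells the share was 71.0% and 70.1% against 79.7%, and in ISC- and TA-like cells 31.0% and 27.2% against 45.7%. The immunosubunit was thus the more abundant transcript of the pair in enterocyte-like cells of all 3 libraries and the less abundant in ISC- and TA-like cells of all 3. Psmb9 made up 37.1% and 37.0% against 46.6% of its pair in enterocyte-like cells and 23.2% and 22.2% against 30.5% in ISC- and TA-like cells. The third pair moved least. Psmb10 made up 79.4% and 79.7% against 81.2% in enterocyte-like cells and 55.6% and 53.5% against 59.5% in ISC- and TA-like cells, and was not called itself (290 and 276 CPM against 318 CPM in all kept cells, adjusted p = 0.615).

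Psmb5 entered these shares with the opposite sign to Psmb8, at 159 and 169.8 CPM in the cKO replicates and 142 CPM in WT (log2 fold change 0.25 ± 0.09, adjusted p = 0.390). Psmb6 (269, 268 and 258 CPM) and Psmb7 (136, 138 and 133 CPM) were nearly level over the libraries. Of the 14 genes of the constitutive proteasome core none was called, among them the most abundant, Psma7 (374 and 387 CPM against 394 CPM) and Psmb1 (319.7 and 323 CPM against 300.3 CPM), and their median log2 fold change was 0.06 beside 0.00 over all genes.

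**Figure D4:**
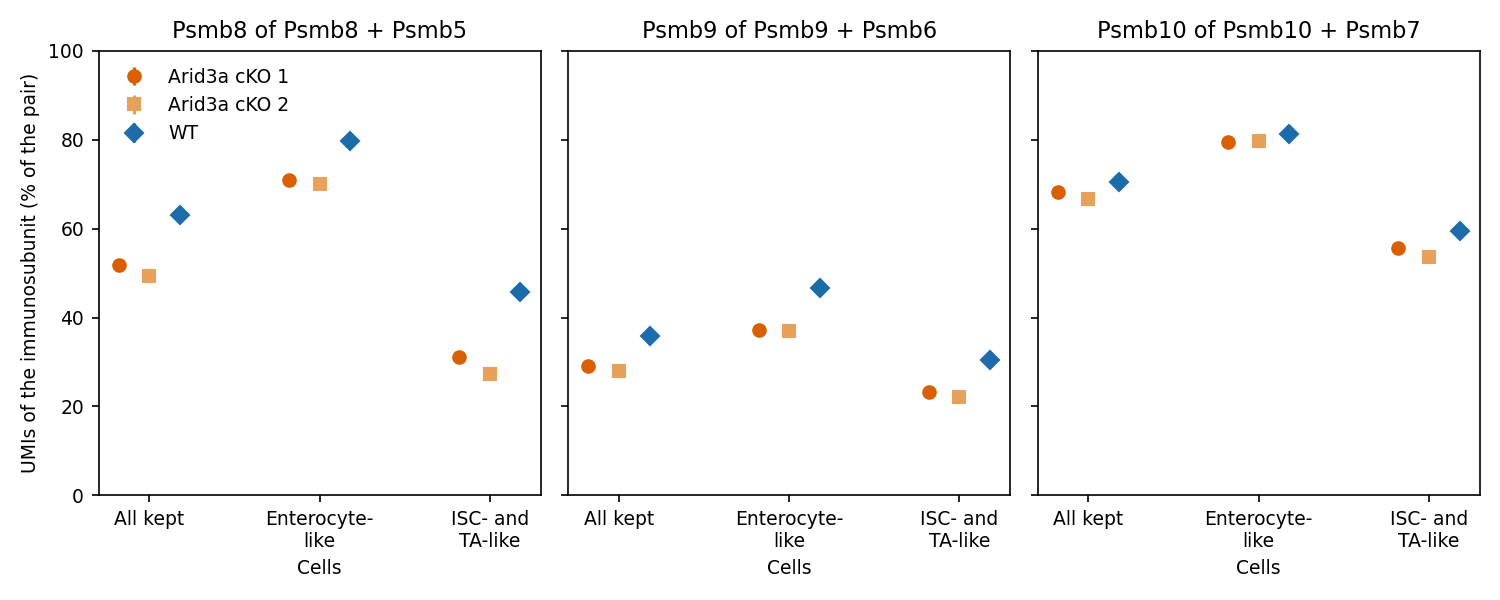
UMIs of each immunosubunit as a percent of its pair with the constitutive subunit it replaces, by library, in all kept cells, enterocyte-like cells and ISC- and TA-like cells (exact 95% binomial intervals, narrower than the points, counting error only). For Psmb8 and Psmb9 both Arid3a cKO libraries lie below WT in all 3 sets, with Psmb8 at 31.0%, 27.2% and 45.7% in ISC- and TA-like cells, and the steps are smaller for Psmb10.

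Cell by cell the distributions lay lower along most of their length. With every cell thinned to 15000 UMIs (20 to 73 shallower cells a library left out in each set), the sum of Psmb8, Psmb9 and Tap1 in enterocyte-like cells had a median of 7 and 6 UMIs in the cKO replicates and 9 in WT, with 10th percentiles of 2, 2 and 3 and 90th percentiles of 13, 13 and 16. In ISC- and TA-like cells the medians were 3, 2 and 4. The sum of H2-K1, H2-D1 and B2m had medians of 37 and 40 against 43 in enterocyte-like cells and 14 and 15 against 18 in ISC- and TA-like cells. The 10% of enterocyte-like cells with the most UMIs of Psmb8, Psmb9 and Tap1 held 22.2%, 23.2% and 21.2% of them, close to one another in the 3 libraries. Unthinned, the same sum was 476 and 462 CPM against 636 CPM in enterocyte-like cells.

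Over single enterocyte-like cells of each library, the summed Psmb8, Psmb9 and Tap1 went with the summed H2-K1, H2-D1 and B2m with a Pearson r of 0.41, 0.45 and 0.46 (785, 581 and 700 thinned cells that share a library and a depth). In ISC- and TA-like cells r was 0.21, 0.19 and 0.31. Over 23 sums of a library and a class, 5571 genes with a mean of at least 20 CPM were compared with the 10 genes' summed CPM. With the group, the lists and the cell type markers left out, the sum was followed most closely by Crip1 (Pearson r = 0.980 of log2 CPM). Next came Ttc7 (0.976), Edf1 (0.968), Cmtm6 (0.968) and Tmem45b (0.964). CMTM6 is known to hold PD-L1 at the cell surface. Of the 10 genes themselves Tap2 came nearest to the sum (0.956), and Psmb9 (0.705), H2-T3 (0.618) and Nlrc5 (0.520) followed it least. The sums share libraries and cells, so these values describe likeness across classes.

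The 7 lists of related genes gave the surroundings of the pathway in all kept cells. MHC class II genes, which interferon-gamma also raises through the transactivator CIITA, stood furthest from WT: 6 of 7 tested were called lower and none higher, with a median log2 fold change of −2.06. Cd74, the invariant chain, gave 55.3 and 37.5 CPM in the cKO replicates and 306 CPM in WT (log2 fold change −2.68 ± 0.17, adjusted p = 0.000175). H2-Aa, H2-DMb1 and H2-Eb1 were at −2.66, −2.10 and −2.06. Their own transactivator, Ciita, gave 69, 26 and 167 UMIs (adjusted p = 0.0784) and was called in enterocyte-like cells (0.0261) and in ISC- and TA-like cells (0.0322). In the same cells the median log2 fold change was thus −2.06 for the class II genes and −0.19 for the 10 genes.

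Of 13 interferon-gamma GTPases and targets tested 3 were called lower, 11 had a negative log2 fold change, and the median was −1.04. Igtp (8.87 and 5.85 CPM against 28.2 CPM, log2 fold change −1.90 ± 0.19), Irgm2 (−1.75 ± 0.25) and Irgm1 (−0.71 ± 0.12) are GTPases of defence against vacuolar microbes. In the list of 20 regulators, whose median was −0.01, Stat2, a signal carrier of the interferon receptors, was called lower (6.43 and 5.98 CPM against 10.6 CPM, log2 fold change −0.73 ± 0.13, adjusted p = 0.0493). Irf1, an activator of Psmb9 and Tap1, gave 68.3 and 64.1 CPM against 87.1 CPM (adjusted p = 0.188) and was called lower in enterocyte-like cells (log2 fold change −0.58 ± 0.09, adjusted p = 0.00281). The receptor genes Ifngr1 (0.38 ± 0.09, adjusted p = 0.149) and Ifngr2 (0.42 ± 0.09, adjusted p = 0.102) had the opposite sign. In ISC- and TA-like cells 3 of 9 GTPases and targets tested were called lower, 5 of the 9 were negative, and the median was −0.63.

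Of 25 antiviral interferon genes 2 were called lower, Zbp1 (9.97 and 10.1 CPM against 21.2 CPM, log2 fold change −1.05 ± 0.11), a sensor of left-handed nucleic acid, and Ifit1 (−0.86 ± 0.12), and the median was −0.47. Of 16 other class I genes tested 1 was called lower, H2-Q7 (2.03 and 2.01 CPM against 5.77 CPM, log2 fold change −1.48 ± 0.17, adjusted p = 0.00847), a Qa-2 heavy chain, with a list median of −0.02. In contrast to some of its relatives, H2-Q7 shared none of its 91-base windows near the 3′ end with another gene. The most abundant of this list, H2-Q2 (253 and 269.6 CPM against 276 CPM) and H2-T23, which encodes Qa-1 (119.8 and 127 CPM against 125 CPM), were not called. None of 9 genes of peptide supply and loading was called, with a median of −0.11, among them Calr (527 and 566 CPM against 633 CPM), a chaperone of the loading complex, and Psme2 (354 and 374 CPM against 371 CPM), of the proteasome activator. No gene of any list was called higher in all kept cells. In all, 14 of the 104 list genes tested were called. The leukocyte markers given above summed to 9.19 and 25.2 CPM against 43.6 CPM in all kept cells, and 10 list genes were called without the cells that held them, all 10 among the 14. Endothelial markers summed to 1.89, 1.84 and 2.54 CPM, and fibroblast markers to 0.0282, 4.20 and 0.128 CPM, of which the 4.20 CPM came from 1 cell.

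**Figure D5:**
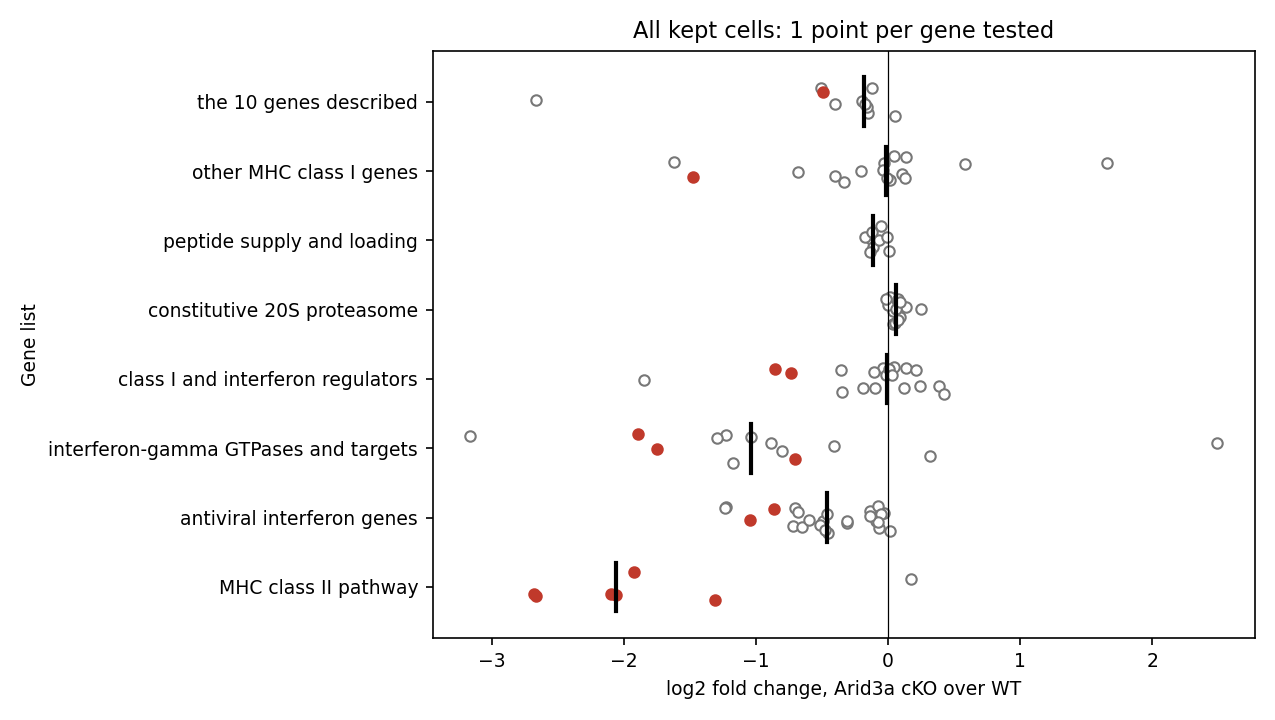
Log2 fold changes (Arid3a cKO over WT, edgeR) in all kept cells for each tested gene of the group and of 7 related lists, with a bar at the list median and filled points where the adjusted p was under 0.05. All filled points lie to the left of 0, the class II genes furthest (6 of 7 filled, median −2.06), and the proteasome core clusters at 0.06.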

How the data were processed

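Single-cell 3′ libraries were made with 10x reagents, and the authors deposited, per library, a matrix of raw UMI counts written by Cell Ranger 5.0.0 per the file headers. The genome build of the counting was not given for mouse in the sources used here, and 99.46% of feature identifiers matched GENCODE M21 (GRCm38), used for positions. Only 1 WT library was analysed here. Cells with at least 1000 genes and at most 15% mt- UMIs were kept (5594 of 25554), as in the study's methods. Cells were integrated and clustered in Seurat 5.3.0 (CCA, 3000 features, 30 components, resolution 0.3) without the 10 genes, the lists and Arid3a. Doublet scores came from Scrublet (scanpy 1.11.5), which called 30, 34 and 46 cells. These were kept, and an alternative left out the 5% of highest score. Clusters were named from marker lists.

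Counts were summed per library and cell set and tested with edgeR 4.0.16 (R 4.3.3; TMM factors, filterByExpr, quasi-likelihood F test, Benjamini-Hochberg adjustment over all genes tested, threshold 0.05). The replicates are called biological per the labels, with no animal named. The p-values rest on the spread between the 2 cKO libraries, with spread borrowed from all genes, and hold no measure of spread among WT mice. DESeq2 1.42.0 and other scalings, filters and cell selections were alternatives. On simulated data, 24%, 74% and 29% of genes changed 1.5-fold and 98%, 100% and 96% of genes changed 2-fold were called in all kept, enterocyte-like and ISC- and TA-like cells (16318, 12325 and 14131 genes run), with 7 or 8 unchanged genes called. The changed genes were drawn from the more abundant ones, every gene had the same dispersion, and WT varied like the cKO libraries. These rates therefore do not cover scarce genes such as Nlrc5, spread that differs by gene, or a WT library that varies otherwise.

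Named from the lists were up to 4 called genes of widest fold change, or the 2 most abundant where fewer than 2 were called, plus Psmb5, Psmb6 and Psmb7 as the replaced subunits. A few more (Ciita, Irf1, the interferon-gamma receptors and Psmb10, and mt-Nd3, Gm28438, Ifng and the leukocyte genes) were chosen after their values were seen. The 10 genes, lists and tests were chosen with earlier results of these data known. 1 gene of the lists is not reported here.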

Additional observations from a re-analysis of the deposited data

Results flagged for a closer look

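Of the 10 genes 3 were higher than WT in both Arid3a cKO libraries in enterocyte-like cluster 5 and lower in both in enterocyte-like clusters 1 and 2. The cKO mean in cluster 5 was 122.4% of WT for H2-T3, 111.7% for Tap2 and 107.3% for H2-D1. In a finer clustering this cluster went from 175 to 118 cells in WT. In the cKO replicates it went from 179 to 157 and from 183 to 142. These genes were not compared in the finer clusters. The difference between the clusters was not tested.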

How the results depend on the processing

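Across all the alternatives, the fold changes of the 10 genes were negative in 329 of 339 values. All 10 that were positive belonged to H2-T3, whose 0.05 in all kept cells became −0.011 with wider limits on cells (at least 500 genes, at most 25% mt- UMIs). These values are re-runs on the same 3 libraries in cell sets that overlap, so they are not independent. The share of negative values over all genes and the same alternatives was not counted. The number of the 10 genes called in all kept cells, 1 in the report, was 0 with RLE normalization, 0 without cells holding leukocyte marker UMIs, 0 without the 5% highest antiviral interferon shares, 3 without the 5% highest doublet scores, 1 with wider limits on cells (Nlrc5 in place of Psmb8) and 4 with no filter on low counts. In enterocyte-like cells the 3 calls became 0 with DESeq2 and 1 without the highest doublet scores, and were 4 with no scaling factor and 4 with no filter on low counts. In ISC- and TA-like cells the 2 calls became 1 with DESeq2, 1 with no scaling factor and 1 without cells holding leukocyte marker UMIs, and were 3 with no filter on low counts and 3 without the highest antiviral interferon shares. The median log2 fold change moved from −0.19 to −0.29 in all kept cells with wider limits on cells. With classes weighted by WT cells it was −0.24, from CPM without a scaling factor, beside −0.22 in edgeR with no scaling factor. It moved from −0.30 to −0.23 in ISC- and TA-like cells without cells holding leukocyte marker UMIs (over the 9 genes tested there, Nlrc5 left out, whose median was also −0.30 with all cells). Leaving out 1 cKO replicate, with no test, gave medians from −0.29 to −0.22 in all kept cells, −0.29 to −0.19 in enterocyte-like cells and −0.36 to −0.29 in ISC- and TA-like cells. These are log2 ratios of CPM without a scaling factor. With both replicates and no scaling factor, edgeR gave −0.22, −0.20 and −0.31 in these sets. The count of list genes called, 14, was 27 with no filter on low counts, all 14 among them, and 10 to 19 otherwise (4 of these alternatives were chosen after seeing the data). The cause of these shifts was not tested. Over all genes the calls went from 116 to 60 (RLE), 677 (no filter) and 276 (doublet scores) in all kept cells. In enterocyte-like cells they went from 272 to 87 (DESeq2), 131 (doublet scores), 420 (no scaling factor) and 572 of 20945 tested (no filter). In ISC- and TA-like cells they went from 191 to 43 (DESeq2), 45 (no scaling factor) and 61 (leukocyte marker UMIs). There they were 227 of 23231 tested with no filter and 187 without the highest antiviral interferon shares. No paired analysis was possible because no more than 1 replicate number occurs in both groups.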
